A study of Saccharomyces cerevisiae with 8 samples.

Results

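The genes described here are the ATG genes of budding yeast (Saccharomyces cerevisiae), whose products carry out autophagy. Every gene whose current symbol is ATG followed by a number was taken, whatever its measured values. The list itself was chosen with earlier results of these data known. The gene table of the R64 assembly holds 37 such symbols, and 34 of them were among the 5449 genes measured, each by 1 probe set that the array's naming does not mark as shared between transcripts. ATG42, ATG44 and ATG45 are not analysed here. Transcripts were measured on 8 Affymetrix yeast arrays in 4 groups of cultures, with 2 biological replicates per group as the labels call them. The groups were cells deleted for DOT1, the histone H3 lysine methyltransferase (called dot1), for SWI4, the DNA-binding subunit of the cell-cycle factor SBF (swi4), or for ARD1, the catalytic subunit of the main N-terminal acetyltransferase NatA (ard1), and the wild type (wt). All were grown in rich YPD medium at 30 C to an optical density of 0.7, so no group was starved by design, and the labels name neither the strain background nor the mating type.

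In autophagy a cup-shaped membrane grows around cytoplasm or a chosen cargo, closes into an autophagosome and delivers its content to the vacuole, where it is broken down and its amino acids are reused. The Atg1 kinase complex starts the process when the nutrient sensor TORC1 is switched off. Vesicles that carry Atg9 supply membrane, a phosphatidylinositol 3-kinase marks the site, and 2 ubiquitin-like conjugation systems attach Atg8 to the growing membrane. Receptor proteins tie particular cargoes to the scaffold Atg11 or to Atg8. In growing cells the same machinery runs the Cvt pathway, which brings the enzymes Ape1 and Ams1 to the vacuole.

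Levels are log2 RMA intensities, and a change is a difference of log2 group means with its limma standard error (n = 2 arrays per group). A gene was called, and is said to have risen or fallen, at a Benjamini-Hochberg adjusted p under 0.05 over all 5449 genes in limma. DOT1 lay at 4.49 and 4.29 in dot1, against 7.49 to 8.09 in the other groups. ARD1 lay at 5.57 and 5.22 in ard1, against 10.41 to 10.83 elsewhere. SWI4 was dim throughout, at 4.21 and 4.22 in swi4 and 4.94 to 5.48 elsewhere. In such bulk samples fewer cells that express a gene and less RNA per cell cannot be told apart. The wt arrays differed from each other more than the swi4 or ard1 arrays did, with an SD of the replicate difference over all genes of 0.30 in dot1, 0.14 in swi4, 0.17 in ard1 and 0.32 in wt. The median intensity was 623 to 644 on 6 mutant arrays, and 625 and 713 on wt replicates 1 and 2. Over the 5449 genes the middle change from wt was below 0 in each mutant, at −0.07 in dot1, −0.10 in swi4 and −0.07 in ard1. The 3 mutants were compared with the same wt arrays, so their changes against wt are not independent of each other.

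Most ATG transcripts varied little, and many of them were dim. Of the 34 genes, 14 lay in the dimmest 25% of all genes and 4 in the brightest 25%. The median ATG gene was brighter than 32.3% of all genes. The part of this low signal in their small range was not tested. The range of a gene over the 8 arrays had a median of 0.55 for the ATG genes and 0.62 for all genes, and it was above 1 in 3 of 34 ATG genes (8.82%) and in 18.4% of all genes. Those 3 were ATG41 (2.67), the Ams1 receptor gene ATG34 (1.22) and ATG5 (1.02), a conjugation gene. In all, 9 of 34 ATG genes (26.5%) were called in at least 1 mutant against wt, and 25% of all genes were.

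**Figure D1:**
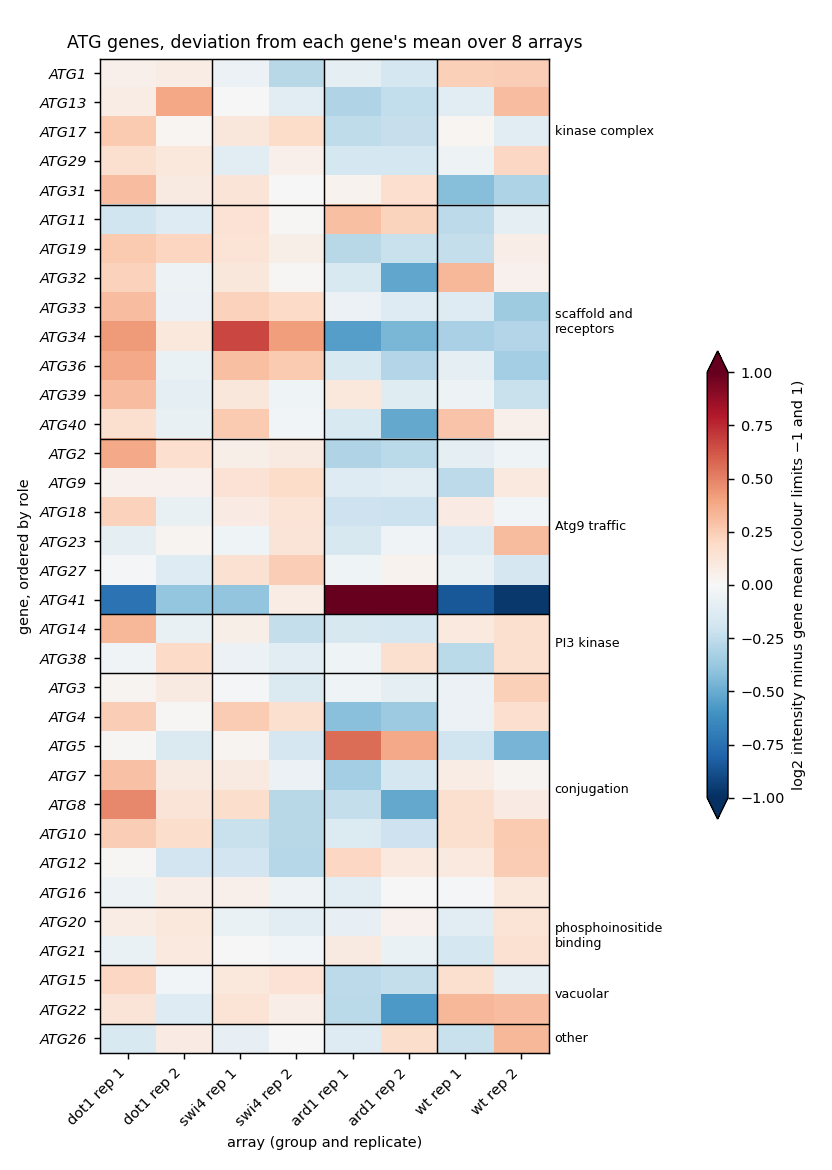
Log2 intensity of the 34 ATG genes on each of the 8 arrays, as the deviation from the gene's own mean, with genes ordered by role and arrays by group. ATG41 in ard1 lies beyond the colour limit of 1, ATG34 is high in swi4, ATG5 is high in ard1, and most other cells are pale.

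In dot1, 0 of 34 ATG genes were called by limma, where 2.46% of all genes were. At an unadjusted p under 0.05 there were 5 (14.7%), against 22.5% of all genes. Limma with an intensity trend also called 0, median centring of the arrays gave 1 and quantile normalization gave 2, all of them rises. Of all genes, 6.39%, 4.28% and 3.95% were called under these settings. The median change of the ATG genes was 0.06, with 23 of 34 positive, but it was −0.02 with 16 positive without wt replicate 1 and 0.14 with 26 positive without wt replicate 2. It was 0.14 after median centring and 0.16 after quantile normalization. The changes ran from −0.32 for ATG22 to 0.57 for ATG34. Both dot1 arrays lay apart from both wt arrays for 13 of 34 genes (38.2%), as they did for 42.6% of all genes. The dot1 arrays themselves were unequal for these genes: replicate 2 was the higher one for 12 of 34, with a median difference of −0.18, while the median over all genes was 0.02.

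In swi4, 4 of 34 ATG genes were called (11.8%), close to the 12.2% of all genes. ATG34 and ATG41 rose, a direction called for 5.16% of all genes, and ATG1 and ATG10 fell, a direction called for 7.01%. The median change was −0.02, and its sign was not stable: it was 0.08 after either scaling, 0.03 and 0.11 without wt replicates 1 and 2, and 0.01 and 0.06 without swi4 replicates 1 and 2. Both swi4 arrays lay apart from both wt arrays for 18 of 34 genes (52.9%), as they did for 59.6% of all genes. In ard1, 8 of 34 were called (23.5%), where 18.5% of all genes were. There ATG41, ATG5, ATG31 and ATG11 rose, against 6.26% of all genes, and ATG22, ATG4, ATG10 and ATG1 fell, against 12.2%. The ATG median in ard1 was −0.18, with 9 of 34 changes positive, and 22 of 34 genes (64.7%) had no overlap with wt, against 57% of all genes. This median was −0.10 after median centring and −0.08 after quantile normalization or without wt replicate 2, each with 14 of 34 positive. The split of rises and falls depended on how the arrays were scaled. Median centring gave 3 rises and 0 falls in swi4 and 4 rises and 1 fall in ard1. Quantile normalization gave 5 and 0 in swi4 and 4 and 1 in ard1. The split of all genes moved too. Of all genes, 281 rose and 382 fell in swi4 as deposited, 426 and 299 after median centring and 456 and 361 after quantile normalization. In ard1 these were 341 and 665, 511 and 508, and 555 and 562. In ard1 the share of ATG genes called was then 14.7% under both scalings, below the 18.7% and 20.5% of all genes, and with an intensity trend it was 8.82% against 19.6%. No ATG gene was called in all 3 mutants.

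**Figure D2:**
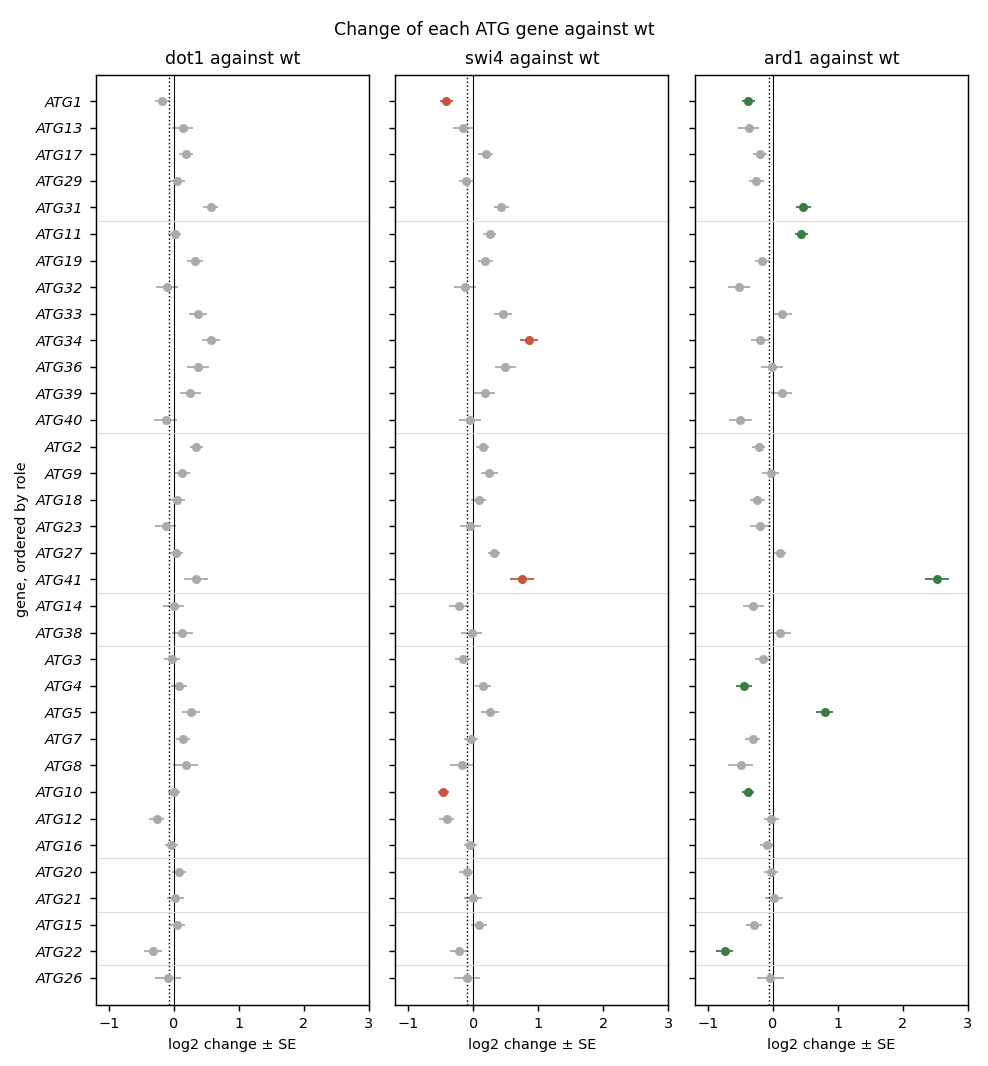
Log2 change against wt, with its standard error (limma, 2 arrays per group), of each ATG gene in dot1, swi4 and ard1. Coloured points were called (0, 4 and 8 genes), grey points were not, the solid line is 0 and the dotted line is the median change of all genes; ATG41 in ard1 is the only change above 1.

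Among the 5 measured genes of the Atg1 kinase complex, 0 were called in dot1, 1 fell in swi4, and 1 rose and 1 fell in ard1. Of all genes, 2.46% were called in dot1, 7.01% fell in swi4, and 6.26% rose and 12.2% fell in ard1. ATG1 encodes the kinase itself. It lay at 8.54 and 8.56 in dot1, 8.43 and 8.21 in swi4, 8.39 and 8.31 in ard1, and 8.73 and 8.73 in wt. All 6 mutant arrays were thus below both wt arrays. It fell by 0.41 ± 0.10 in swi4 (1.33-fold lower, adjusted p = 0.0459) and by 0.38 ± 0.10 in ard1 (1.30-fold lower, adjusted p = 0.0445), while the change in dot1 was −0.18 (adjusted p = 0.34). Both falls were at the edge of the threshold, and were lost with only the 2 groups compared in the fit and with an intensity trend. Each was lost in all 8 fits that left out 1 array (adjusted p 0.0536 to 0.256 in swi4 and 0.0609 to 0.236 in ard1) and under both scalings.

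ATG31, which with ATG17 and ATG29 encodes the scaffold that gathers the kinase complex in starvation, went the other way. Its levels were 7.57 and 7.35 in dot1, 7.39 and 7.26 in swi4, 7.29 and 7.43 in ard1, and 6.83 and 6.95 in wt. Every mutant array was above both wt arrays. The rise in ard1 was 0.47 ± 0.12 (1.38-fold, adjusted p = 0.0359), and the changes of 0.57 ± 0.12 in dot1 and 0.43 ± 0.12 in swi4 just missed the threshold (adjusted p = 0.0583 and 0.0578). After median centring ATG31 was called in dot1 and swi4 too (adjusted p = 0.0331 and 0.0284). The ard1 call was lost without ard1 replicate 1 or 2, swi4 replicate 1 or 2, or wt replicate 1. It was also lost with only ard1 and wt in the fit and with an intensity trend. ATG17 and ATG29 were not called in any mutant (changes from −0.25 to 0.19). ATG13, the regulatory partner that TORC1 phosphorylates, gave 0.13, −0.15 and −0.37 ± 0.17 in dot1, swi4 and ard1, without a call.

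The scaffold, receptor and other genes of selective autophagy numbered 8. In dot1 they had a median change of 0.29 with 0 called, in swi4 0.22 with 1 called and in ard1 −0.09 with 1 called, where 2.46%, 12.2% and 18.5% of all genes were called. ATG34 encodes a receptor for Ams1 that works under starvation, and ATG19 the main receptor of the Cvt pathway. These are neighbouring genes in the gene table. ATG34 lay at 8.60 and 8.28 in dot1, 8.84 and 8.59 in swi4, 7.62 and 7.72 in ard1, and 7.85 and 7.88 in wt. Its rise in swi4 was 0.85 ± 0.14 (1.80-fold, adjusted p = 0.0149), and dot1 gave 0.57 ± 0.14 (adjusted p = 0.078). Both ard1 arrays were below both wt arrays, at a change of −0.19 ± 0.14 that was not called (adjusted p = 0.393). The swi4 rise was lost without wt replicate 2, swi4 replicate 1 or swi4 replicate 2 (adjusted p up to 0.124). ATG19 gave 0.32, 0.19 and −0.16 ± 0.12 in dot1, swi4 and ard1, and none of these passed.

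ATG11 encodes the scaffold that links receptors to the membrane-forming machinery. It lay at 7.94 and 8.01 in dot1, 8.28 and 8.15 in swi4, 8.44 and 8.36 in ard1, and 7.88 and 8.05 in wt. It rose in ard1 by 0.44 ± 0.10 (1.35-fold, adjusted p = 0.0298), and the call was made in 3 of the 8 fits that left out 1 array. It was lost without wt replicate 1 or any 1 of the swi4 or ard1 arrays. The call was also lost with only ard1 and wt in the fit and with an intensity trend. ATG36, the receptor gene for peroxisomes, and ATG33, whose product is a mitochondrial protein needed for mitophagy, were higher in swi4 than in wt on both arrays, by 0.49 ± 0.17 and 0.46 ± 0.14, without a call (adjusted p = 0.1 and 0.0842). Both dot1 arrays were above both wt arrays for these genes too. ATG36 lay at 8.79 and 8.34 in dot1 and 8.32 and 8.07 in wt. ATG33 lay at 12.35 and 11.99 in dot1 and 11.91 and 11.69 in wt. ATG32, the mitophagy receptor gene, and ATG40, a receptor gene for the endoplasmic reticulum, lay lowest in ard1, with changes of −0.52 ± 0.17 and −0.50 ± 0.17 that did not pass (adjusted p = 0.0795 and 0.0975). ATG39, a receptor gene for the nuclear envelope, gave 0.25, 0.18 and 0.13 in dot1, swi4 and ard1 without a call.

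ATG41 (YPL250C, formerly ICY2) was set apart from the other members. Its product binds Atg9 and is needed for normal autophagosome formation, and its gene is known as a target of the amino acid starvation factor Gcn4. Its levels were 11.58 and 11.93 in dot1, 11.92 and 12.39 in swi4, 13.87 and 14.02 in ard1, and 11.47 and 11.35 in wt. Both ard1 arrays were above all others by more than 1 log2 unit, and the dot1 and swi4 arrays were also above both wt arrays. The rise in ard1 was 2.53 ± 0.19 (5.79-fold, adjusted p = 0.00153), the change of rank 3 among all genes counted from the largest rise, and swi4 gave 0.74 ± 0.19 (1.67-fold, adjusted p = 0.0484). In dot1 the change was 0.34 ± 0.19 with a 95% interval from −0.10 to 0.78 (adjusted p = 0.339). The ard1 rise was called in all 8 fits that left out 1 array, with adjusted p from 0.00330 to 0.0227. It was also called under the other 7 settings tried, and the log2 change stayed between 2.46 and 2.61. With only swi4 and wt in the fit the swi4 rise was lost (adjusted p = 0.109). The swi4 rise was called in 2 of those 8 fits, those without a dot1 array, with adjusted p up to 0.232 in the others.

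The other 5 genes of this group, ATG2, ATG9, ATG18, ATG23 and ATG27, were not called in any mutant. ATG9, which encodes the membrane protein carried by the vesicles, lay at 7.38 and 7.39 in dot1, 7.49 and 7.52 in swi4, 7.22 and 7.23 in ard1, and 7.08 and 7.44 in wt. The wt arrays spanned the dot1 and ard1 levels. Its changes had 95% intervals from −0.18 to 0.43 in dot1, −0.05 to 0.55 in swi4 and −0.34 to 0.27 in ard1. ATG2, ATG18 and ATG23 gave changes from −0.24 to 0.34 over the 3 mutants. ATG27, a gene for a protein that helps Atg9 vesicles form, was higher in swi4 than in wt by 0.32 without a call (adjusted p = 0.0752).

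**Figure D3:**
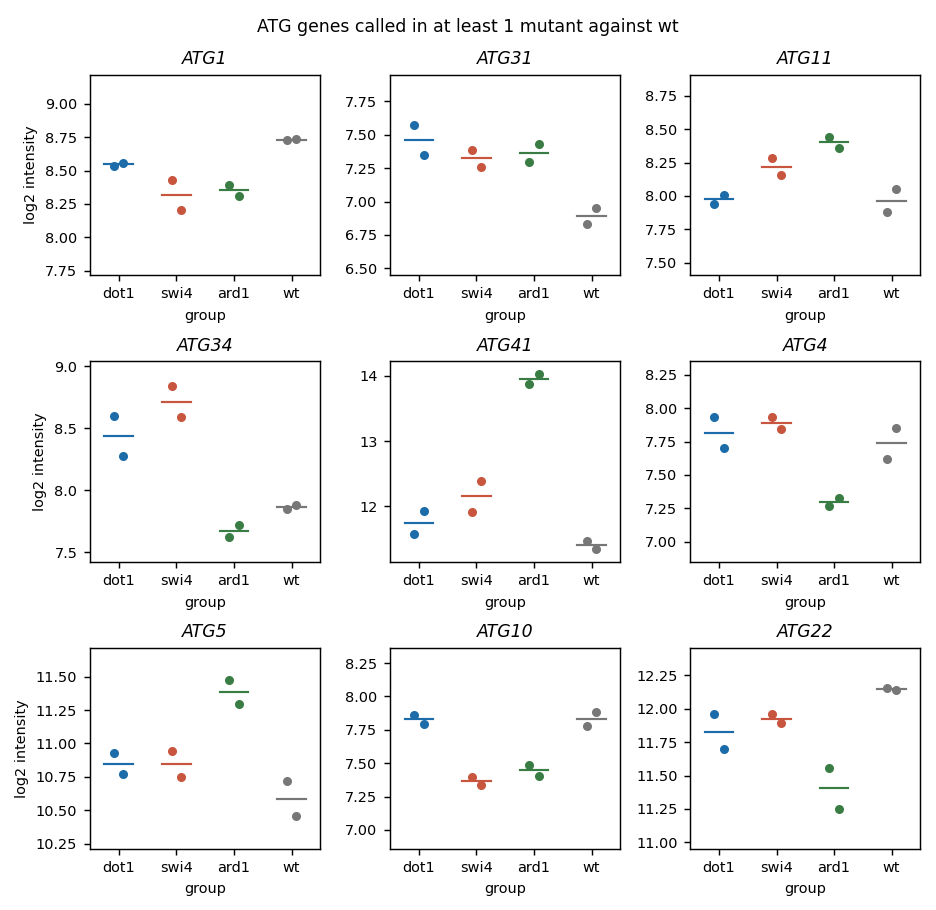
Log2 intensity on each array (points) and group mean (bars) for the 9 ATG genes called in at least 1 mutant against wt; the vertical scale differs between panels and spans at least 1.5 log2 units. ATG41 is highest on both ard1 arrays, ATG34 is high in dot1 and swi4, and ATG31 is lowest on both wt arrays.

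Of 8 conjugation genes, 0 were called in dot1, 1 fell in swi4, and 1 rose and 2 fell in ard1, beside 2.46% of all genes called in dot1, 7.01% that fell in swi4, and 6.26% that rose and 12.2% that fell in ard1. ATG5 encodes the protein to which Atg12 is attached. It lay at 10.93 and 10.77 in dot1, 10.94 and 10.75 in swi4, 11.47 and 11.29 in ard1, and 10.72 and 10.45 in wt. The ard1 arrays stood above all others, with a rise of 0.80 ± 0.14 (1.74-fold, adjusted p = 0.0113). This call was lost without ard1 replicate 1 or ard1 replicate 2 (adjusted p up to 0.0792), and it was kept under all 7 other settings.

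ATG10 encodes the enzyme that joins Atg12 to Atg5, and ATG4 the protease that trims Atg8 and later frees it from the membrane. ATG10 lay at 7.86 and 7.80 in dot1, 7.40 and 7.34 in swi4, 7.48 and 7.41 in ard1, and 7.78 and 7.88 in wt. The swi4 and ard1 arrays were all below the dot1 and wt arrays. It fell by 0.46 ± 0.09 in swi4 (adjusted p = 0.0241) and by 0.38 ± 0.09 in ard1 (adjusted p = 0.0298), and dot1 was level with wt (95% interval −0.21 to 0.21). ATG4 lay at 7.93 and 7.70 in dot1, 7.94 and 7.85 in swi4, 7.26 and 7.32 in ard1, and 7.62 and 7.85 in wt. Its fall in ard1 was 1.36-fold (−0.44 ± 0.12, adjusted p = 0.0485). With only the 2 groups compared in the fit, or with an intensity trend, this fall and those of ATG10 were lost. These 3 falls were lost under both scalings, and each was called in 3 of the 8 fits that left out 1 array, those without wt replicate 1 or a dot1 array. In the other 5 fits the adjusted p reached 0.171 for ATG10 in swi4, 0.183 for ATG10 in ard1 and 0.208 for ATG4.

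ATG8 encodes the ubiquitin-like protein that is attached to lipid and is widely used as a measure of autophagy. It lay at 10.56 and 10.21 in dot1, 10.26 and 9.81 in swi4, 9.84 and 9.58 in ard1, and 10.24 and 10.17 in wt. Only the ard1 arrays lay wholly apart from wt, and they were lower. The change was −0.49 ± 0.19 in ard1 (95% interval −0.95 to −0.04, adjusted p = 0.123), 0.18 ± 0.19 in dot1 and −0.17 ± 0.19 in swi4, with no call. Replicate 2 was the lower array in every group for this gene. ATG3, ATG7 and ATG12 were not called either, and ATG12 in swi4 came nearest (−0.41 ± 0.11, adjusted p = 0.0588). ATG16, whose product holds the Atg12 and Atg5 conjugate at the membrane, was the dimmest member, at 4.12 and 4.23 in dot1, 4.22 and 4.12 in swi4, 4.07 and 4.17 in ard1, and 4.15 and 4.28 in wt. It lay next to the lowest gene mean of 4.02, so a fall in it would not be visible here.

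ATG22 encodes a vacuolar permease that returns amino acids to the cytosol, and ATG15 the lipase that opens autophagic bodies inside the vacuole. ATG22 lay at 11.96 and 11.70 in dot1, 11.96 and 11.89 in swi4, 11.56 and 11.25 in ard1, and 12.16 and 12.14 in wt. All mutant arrays were below wt, and the ard1 arrays were the lowest. It fell 1.67-fold in ard1 (−0.74 ± 0.14, adjusted p = 0.0143), and gave −0.32 in dot1 and −0.22 in swi4 without a call. The fall was lost without ard1 replicate 2 (adjusted p = 0.0957) and with only ard1 and wt in the fit (adjusted p = 0.0517). ATG15 gave −0.29 in ard1 (adjusted p = 0.163). The kinase subunit genes ATG14 and ATG38, the phosphoinositide-binding genes ATG20 and ATG21, and the sterol glucosyltransferase gene ATG26 were not called in any mutant, with changes from −0.30 to 0.13.

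The mutants were also compared with each other, without the wt arrays in the difference. Between swi4 and dot1, limma called 0 of 34 ATG genes, where 1.01% of all genes were called. At an unadjusted p under 0.05 there were 3 (8.82%), against 11.7% of all genes, and limma with an intensity trend also called 0. The arrays did not overlap for 13 of 34 (38.2%), against 44.4% of all genes. Against dot1, ard1 differed in 9 of 34 (26.5%), where 14.1% of all genes differed. How far the ATG share stood above that of all genes depended on the setting. Without the dimmest 25% of genes it was 30% of the 20 ATG genes left, against 16.8%. Under either scaling it was 23.5% against 17.8%. With an intensity trend it was 17.6% against 15.9%, and with only these 2 groups in the fit 11.8% against 11.6%. ATG41, ATG5 and ATG11 rose, against 5.67% of all genes, and ATG34, ATG2, ATG4, ATG19, ATG7 and ATG10 fell, against 8.44%. The median ATG change was −0.26, with 6 of 34 positive, while the median of all genes was 0.01. Without dot1 replicate 1 the ATG median was −0.16, with 7 positive. The ard1 and dot1 arrays did not overlap for 26 of 34 (76.5%), against 61.4% of all genes, and ard1 was the lower in 22 of these 26, and in 1624 of the 3348 such genes overall. Against swi4, ard1 differed in 5 of 34 (14.7%), where 15.3% of all genes differed, and the ATG median was −0.17 against 0.03 for all genes. These arrays did not overlap for 23 of 34 (67.6%), against 74.1% of all genes. ATG41 and ATG5 rose, against 6.2% of all genes, and ATG34, ATG4 and ATG22 fell, against 9.07%. Median centring moved this split to 1 rise and 4 falls, and quantile normalization to 1 and 5. Of all genes, 338 rose and 494 fell as deposited, 461 and 546 after median centring and 461 and 555 after quantile normalization.

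ATG41 was 4.58-fold higher in ard1 than in dot1 (2.19 ± 0.19, adjusted p = 0.00271) and 3.46-fold higher than in swi4 (1.79 ± 0.19, adjusted p = 0.00359). Both calls were made in all 8 fits that left out 1 array. ATG34 was 2.06-fold lower in ard1 than in swi4 (−1.04 ± 0.14, adjusted p = 0.00609) and 1.70-fold lower than in dot1 (−0.77 ± 0.14, adjusted p = 0.0181). The difference from swi4 was lost without swi4 replicate 1 or ard1 replicate 1 (adjusted p up to 0.0653). The difference from dot1 was lost without dot1 replicate 1 or either ard1 array (adjusted p up to 0.118). ATG2, which encodes a lipid transfer protein at the membrane edge, was lower in ard1 than in dot1 by −0.56 ± 0.10 (adjusted p = 0.0164), a call lost without those same 3 arrays (adjusted p up to 0.112). ATG4 was lower in ard1 than in swi4 by −0.60 ± 0.12 (adjusted p = 0.0235), a call lost without any 1 of the 4 arrays compared (adjusted p up to 0.171). ATG19 and ATG7, the gene of the enzyme that activates both ubiquitin-like proteins, were lower in ard1 than in dot1 by −0.49 ± 0.12 and −0.45 ± 0.11 (adjusted p = 0.0393 and 0.044). These calls and those of ATG5, ATG10 and ATG11 against dot1 were made in the 2 fits without a wt array and lost in the other 6. The calls of ATG5 and ATG7 against dot1 were also lost under both scalings, as was that of ATG5 against swi4. ATG4 against dot1 was lost in 5 of 8, without dot1 replicate 1 or any 1 of the swi4 or ard1 arrays (adjusted p up to 0.179). Against swi4, the ATG5 call was lost without any 1 of the 6 mutant arrays and the ATG22 call without any 1 of the 4 arrays compared (adjusted p up to 0.221 and 0.251). Of the 14 calls between mutants, 2 were made whichever of the compared arrays was left out, and both were those of ATG41.

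Genes of the pathway that carry other names were counted on a list of 47, of which 46 were measured. In dot1, 2 rose and 0 fell (4.35% called, against 2.46% of all genes). In swi4, 4 rose and 3 fell (15.2%, against 12.2%), and in ard1, 3 rose and 4 fell (15.2%, against 18.5%). The medians were 0.01, −0.07 and −0.03. Among them VAC8, which encodes a vacuolar membrane anchor of selective autophagy, fell in swi4 and ard1, by 0.43 and 0.41 ± 0.09 (adjusted p = 0.0282 and 0.0248), and CCZ1, a vacuole fusion gene, rose in ard1 by 0.49 ± 0.09 (adjusted p = 0.0130). Each VAC8 fall was called in 3 of the 8 fits that left out 1 array (adjusted p up to 0.199 and 0.154), the swi4 fall being lost without wt replicate 2, the ard1 fall without wt replicate 1, and both without any 1 of the swi4 or ard1 arrays. The CCZ1 rise was lost without either ard1 array (adjusted p up to 0.0946). Of 4 Cvt cargo genes, APE1, an aminopeptidase, AMS1, a mannosidase, and LAP3 were above both wt arrays on every mutant array. LAP3 and APE4 were not called, and APE4 gave −0.02 in dot1, −0.11 in swi4 and −0.22 in ard1. The shares called were 25%, 50% and 0% in dot1, swi4 and ard1, where 2.46%, 12.2% and 18.5% of all genes were called. APE1 lay at 11.55 and 11.41 in dot1, 11.91 and 11.59 in swi4, 11.35 and 11.20 in ard1, and 10.87 and 10.37 in wt. It rose 2.19-fold in swi4 (1.13 ± 0.19, adjusted p = 0.0159), and gave 0.86 in dot1 and 0.66 in ard1 without a call (adjusted p = 0.0664 and 0.0571). AMS1 rose by 1.02 ± 0.11 in swi4 (2.02-fold, adjusted p = 0.00481) and by 0.62 ± 0.11 in dot1 (adjusted p = 0.0429), while ard1 gave 0.36 (adjusted p = 0.0669). The swi4 calls of both were lost without either swi4 array (adjusted p up to 0.127 for APE1 and 0.0676 for AMS1). Of the 8 fits that left out 1 array, the dot1 call of AMS1 was made only in that without wt replicate 1 (adjusted p up to 0.14 in the other 7). It was also lost under quantile normalization and with only dot1 and wt in the fit (adjusted p up to 0.331). The vacuolar protease genes PEP4, PRB1 and PRC1 were not called in any mutant.

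**Figure D4:**
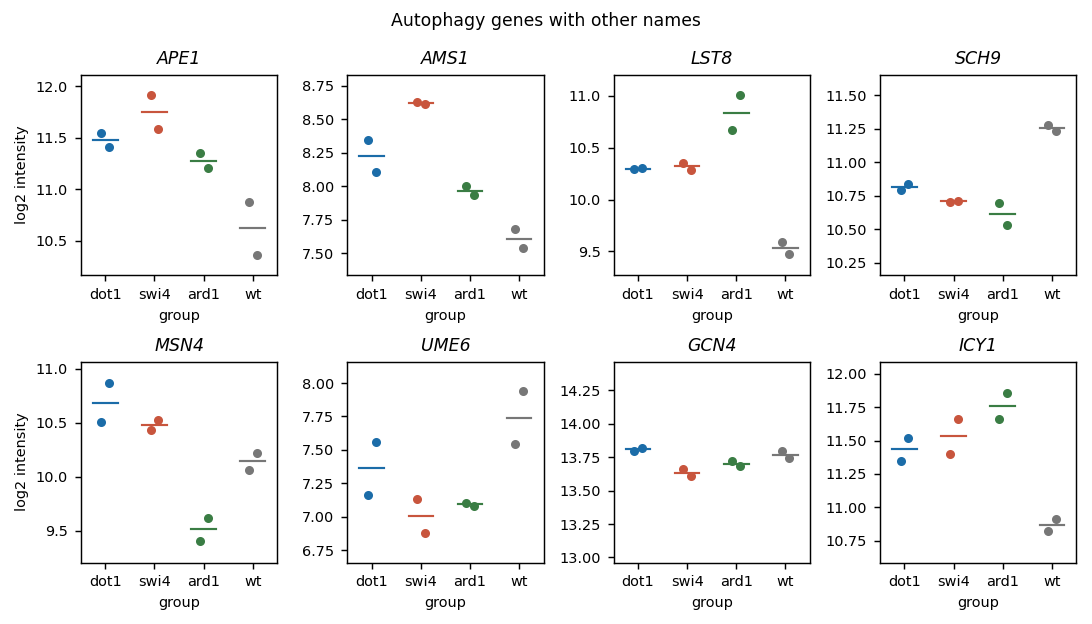
Log2 intensity on each array (points) and group mean (bars) for 8 autophagy genes with other names; the vertical scale differs between panels and spans at least 1.5 log2 units. All mutant arrays are above wt for APE1, AMS1, LST8 and ICY1 and below wt for SCH9, MSN4 is lowest in ard1, and GCN4 is nearly level.

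Of 12 measured genes of TORC1 and its regulators, LST8 rose in all 3 mutants, SCH9 fell in swi4 and ard1, and TOR1 fell in ard1. The shares called were 8.33%, 16.7% and 25% in dot1, swi4 and ard1, where 2.46%, 12.2% and 18.5% of all genes were called. LST8 encodes a subunit shared by both TOR complexes. It lay at 10.29 and 10.30 in dot1, 10.35 and 10.29 in swi4, 10.67 and 11.01 in ard1, and 9.60 and 9.47 in wt. The rises were 0.76 ± 0.13 in dot1 (adjusted p = 0.0361), 0.79 ± 0.13 in swi4 (adjusted p = 0.0139) and 1.31 ± 0.13 in ard1 (2.47-fold, adjusted p = 0.00232). The ard1 rise was called in all 8 fits that left out 1 array. The swi4 rise was lost without wt replicate 2 or either swi4 array (adjusted p up to 0.121), and the dot1 rise was lost in all of these 8 fits but that without wt replicate 1 (adjusted p up to 0.131). With only dot1 and wt in the fit the dot1 rise was also lost (adjusted p = 0.285). SCH9, a kinase gene downstream of TORC1, lay at 10.79 and 10.84 in dot1, 10.71 and 10.71 in swi4, 10.69 and 10.53 in ard1, and 11.28 and 11.23 in wt. It fell by 0.64 ± 0.09 in ard1 (adjusted p = 0.00617) and by 0.55 ± 0.09 in swi4 (adjusted p = 0.0156). The ard1 fall was lost without ard1 replicate 2 (adjusted p = 0.06) and the swi4 fall without either swi4 array (adjusted p up to 0.129). TOR1, the gene of a TOR kinase, fell by 0.46 ± 0.12 in ard1 (adjusted p = 0.0439), which was lost without wt replicate 2 or any 1 of the swi4 or ard1 arrays (adjusted p up to 0.2).

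Among the 11 transcription regulators, UME6 fell in swi4 and MSN4 fell in ard1, and no other was called (9.09% in each, where 12.2% and 18.5% of all genes were called). UME6, a repressor known to act on ATG8, gave −0.73 ± 0.18 in swi4 (adjusted p = 0.0491), and MSN4, a general stress factor gene, −0.63 ± 0.15 in ard1 (adjusted p = 0.0306). Each was called in 3 of the 8 fits that left out 1 array, and both were lost without wt replicate 2 or any 1 of the swi4 or ard1 arrays (adjusted p up to 0.247 and 0.164). GCN4, which is regulated mainly at translation, lay at 13.80 and 13.82 in dot1, 13.66 and 13.61 in swi4, 13.72 and 13.68 in ard1, and 13.79 and 13.74 in wt, with no call. ICY1, the paralogue of ATG41, rose by 0.89 ± 0.13 in ard1 (1.86-fold, adjusted p = 0.00655) and by 0.67 ± 0.13 in swi4 (adjusted p = 0.0244), and dot1 gave 0.57 (adjusted p = 0.0686). The ard1 rise of ICY1 was lost without ard1 replicate 2 (adjusted p = 0.0626). Its swi4 rise was lost without wt replicate 2 or any 1 of the swi4 or ard1 arrays (adjusted p up to 0.158).

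Markers of stress and of mating type moved with the groups as well. The summed intensity of 6 stress genes (HSP12, HSP26, SSA4, CTT1, ALD3 and DDR2) was 30400 and 24500 in dot1, 31900 and 26100 in swi4, 18400 and 20300 in ard1, and 13700 and 10800 in wt. Of these, 2, 5 and 2 rose in dot1, swi4 and ard1 (33.3%, 83.3% and 33.3%), where 2.46%, 12.2% and 18.5% of all genes were called either way. All 6 changes were positive in dot1 and in swi4, but only 3 were in ard1. There HSP26, SSA4 and HSP12 gave 3.38, 1.78 and 0.63, and CTT1, ALD3 and DDR2 gave −0.28, −0.36 and −0.03 without a call. The 5 alpha-cell genes summed to 61200 and 63900 in dot1, 58600 and 59900 in swi4, 46100 and 44100 in ard1, and 63300 and 66000 in wt. Of them 1 fell in swi4 (20%) and 4 in ard1 (80%), where 7.01% and 12.2% of all genes fell. In ard1 against dot1 and ard1 against swi4, 2 and 3 stress genes (33.3% and 50%) and 4 alpha-cell genes each time (80%) fell. Of all genes, 8.44% and 9.07% fell in these comparisons. The 7 a-cell genes stayed between 481 and 733 in sum on all arrays, with 0 called against wt by limma (0, 2 and 2 at an unadjusted p under 0.05 in dot1, swi4 and ard1). Over all arrays the a-cell genes lay at 4.39 to 7.88 and the alpha-cell genes at 11.85 to 14.20, the pattern of alpha cells. The lowest a-cell sums were those of ard1, 564 and 481, and all 7 genes were lower in ard1 than in dot1 and in swi4, with 1 call, BAR1 in ard1 against swi4 (−0.56 ± 0.10, adjusted p = 0.0156). The part of these differences in the ATG values was not tested.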

How the data were processed

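The authors deposited 1 linear RMA intensity for each probe set on each array, per the submitters' processing notes and the size of the values. Its version is not given in the sources used here. RNA (1 ug of total RNA per sample) was labelled by linear amplification per the labels' protocols. The values ran from 15.2 to 35540, and log2 was taken with no pseudocount. Of 5814 probe sets, 5498 had 1 gene symbol, 0 had several and 316 were controls or unnamed and were left out. Symbols were updated through the R64 gene table (12 changed), and the brightest probe set stood for each of 47 genes with several. Groups were compared with limma 3.58.1 in R 4.3.3, in 1 fit of 4 group means over 8 arrays (4 residual and 2.73 prior degrees of freedom), two-sided and adjusted within each comparison over 5449 genes. The code was run on simulated data with independent noise of equal spread in every group. These arrays had unequal spread and correlated replicate deviations, so that run does not test the fit under their conditions. An exact permutation test of 2 against 2 arrays cannot go below p = 0.333. The number of arrays limits the precision.

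Values on every array are given for ATG genes called against wt, for ATG1, ATG8, ATG9 and ATG41 and for the brightest (ATG41) and dimmest member, and other-named genes are named by the largest called changes plus GCN4 and ICY1. Members without a call, and TOR1, VAC8, CCZ1, LAP3 and APE4, were named after their values were seen. The members and lists were chosen with earlier results of these data known. Alternatives left out each array, dim genes or the other groups, changed the scaling, the variance model or the probe set rule, or added a replicate block.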

Additional observations from a re-analysis of the deposited data

How the results depend on the processing

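No ATG call, and no call against wt among the other autophagy genes, turned its direction under any alternative, and of the 12 ATG calls against wt only ATG41 in ard1 was made under all of them. Taking the mean of probe sets left every ATG count as it was. Each ATG gene had 1 probe set, so this setting, 1 of the 7 other settings named above, could not change the ATG values. With only the 2 groups compared in the fit, the ATG counts against wt were 2 in ard1, 1 in swi4 and 0 in dot1. These were 5.88%, 2.94% and 0%, against 7.43%, 3.23% and 0% of all genes. Between mutants they were 4 in ard1 against dot1 (11.8%, against 11.6% of all genes) and 15 in ard1 against swi4 (44.1%, against 40.9%). That fit gave 3, 2 and 0 other autophagy genes and 405, 176 and 0 of all genes in ard1, swi4 and dot1. An intensity trend gave 3 ATG genes in ard1 (8.82%, against 19.6% of all genes), 5 other genes in dot1 and 348 of all genes in dot1. Median centring gave 5 ATG genes in ard1 (14.7%, against 18.7%) and 1 in dot1, 4 other genes in dot1 and 233 of all genes in dot1. Quantile normalization gave 5 ATG genes in ard1 (14.7%, against 20.5%) and 2 in dot1, 11 other genes in ard1 and 215 of all genes in dot1. Without the dimmest 25% of genes, 5 of the 20 ATG genes left were called in ard1 (25%, against 21.3%), and 216 of all genes in dot1.

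Leaving out 1 array at a time, ATG counts ran from 1 to 7 in ard1 and 0 to 4 in swi4 and stayed at 0 in dot1, and from 1 to 11 in ard1 against dot1 and also in ard1 against swi4. Other autophagy genes ran from 1 to 12 in ard1, 0 to 15 in swi4 and 0 to 3 in dot1. All genes ran from 205 to 1037 in ard1, 37 to 1435 in swi4 and 4 to 807 in dot1. The cause of these differences was not tested. The ranges of all genes given here are for the comparisons with wt only. The ATG ranges between mutants therefore do not show whether ATG genes were called more or less often than all genes. Each of these fits also had a group with 1 array.

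The replicate numbers are shared by the groups, but nothing in the labels says that they mark a batch. Deviations of same-numbered arrays correlated across genes at 0.35 to 0.75 in the 6 pairs of groups. With the replicate block, ATG counts against wt were 11 in ard1, 9 in swi4 and 2 in dot1. These were 32.4%, 26.5% and 5.88%, against 27.8%, 25.6% and 14.6% of all genes. Between mutants, 16 were called in ard1 against dot1 (47.1%, against 29% of all genes) and 12 in ard1 against swi4 (35.3%, against 28.4%). In swi4 against dot1 there was 1 (2.94%, against 2.81%). ATG8 was then called in ard1 (−0.49, adjusted p = 0.0164), ATG31 in dot1 and swi4 (adjusted p = 0.0248 and 0.0365) and ATG34 in dot1 (adjusted p = 0.0300). The block gave 13, 12 and 6 other autophagy genes and 1517, 1397 and 793 of all genes in ard1, swi4 and dot1.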
